A study of Mus musculus with 10 samples.

Results

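The glutathione and antioxidant enzymes were taken as the probe sets of the array table that name a single gene whose symbol places it among the glutathione S-transferases (Gst), glutathione peroxidases (Gpx), peroxiredoxins (Prdx), thioredoxins (Txn) or superoxide dismutases (Sod), or that is Gclc, Gclm, Gsr, Gss, Cat, Nqo1, Hmox1 or Txnip. The symbols matched 51 probe sets for 37 genes, and 37 of these probe sets, for 32 genes, lay over a log2 value of 4 on at least 5 of the 10 arrays. All 37 did so on all 10 arrays, so none entered through 1 genotype alone. They stand among 6814 probe sets of the whole array that met the same filter. The other 14 probe sets stayed under the filter and were not tested. They hold every probe set of Gpx2, Gpx5, Gpx7, Gsta1 and Gstm6, whose highest log2 values on any array were 2.01, 2.97, 3.41, 2.0 and 3.49. Further probe sets of Cat, Gss, Gstm1, Gstm2, Gstm5, Prdx2 and Txnip reached at most 0.29, 3.38, 1.38, -0.06, 2.95, 3.15 and 3.02. The peroxiredoxin Prdx1 is left out by the rule, because its probe sets name another gene beside it.

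RNA from kidney was hybridised to Affymetrix MG_U74Av2 arrays, 1 array per mouse, at 8 weeks of age. The transgenic group (TG) comprised animals 614, 619, 652, 657 and 661, which carry human FGF23, the phosphate-lowering hormone of bone, behind a promoter that the labels write as 1 alpha col 1, a collagen promoter active in bone-forming cells. The wild-type group (WT) comprised the littermates 612, 618, 650, 658 and 663, and the strain is given as C57Bl for all 10 mice. The number of founder lines was not given in the sources used here. Groups follow the sample titles, because the genotype field reads transgenic for all 10 samples. The question for these enzymes is whether their kidney transcripts stood at another level in transgenic animals than in littermates.

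Glutathione is a tripeptide that kidney tubules make, use and break down at high rates. Glutathione S-transferases couple it to reactive compounds and to aldehydes from oxidised lipids, peroxidases use it to reduce peroxides, and a reductase regenerates it with NADPH. Peroxiredoxins with thioredoxin form a parallel route, superoxide dismutases turn superoxide into hydrogen peroxide, and catalase removes that product. Many of these genes carry an antioxidant response element, the DNA site of the transcription factor Nrf2 (gene Nfe2l2).

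The promoter windows of the member genes were searched for the core of this element, TGACNNNGC, on both strands, over 250 bases before and 50 bases after the start in RefSeq annotation of GRCm38.p6. Of the 32 member genes 26 matched a window, and Gclc, Gsr, Gsta4, Gstt2, Hmox1 and Sod3 are not shown. The core was found in 4 of the 26 matched genes (15.4%), against 14% of all 27025 genes with a window and 12.4% of all 32851 windows. The windows with a match are printed because they show which members hold these letters near their start, and Gstt1 and Nqo1 because their genotype differences are described most closely. Capitals mark the match. Gclm lies at chr3:122245307-122245606 on the plus strand, Gsta3 at chr1:21240335-21240634 on the plus strand, Gstm5 at chr3:107895604-107895903 on the plus strand and Sod1 at chr16:90220512-90220811 on the plus strand. Gstt1 lies at chr10:75797682-75797981 and Nqo1 at chr8:107403156-107403455, both on the minus strand and without a match in this window.
Gclm: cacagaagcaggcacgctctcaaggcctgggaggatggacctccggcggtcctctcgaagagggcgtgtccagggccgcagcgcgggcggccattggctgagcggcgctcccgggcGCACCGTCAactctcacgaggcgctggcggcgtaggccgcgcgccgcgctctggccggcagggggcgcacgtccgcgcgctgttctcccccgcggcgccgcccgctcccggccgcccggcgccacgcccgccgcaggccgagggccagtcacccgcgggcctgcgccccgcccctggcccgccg
Gsta3: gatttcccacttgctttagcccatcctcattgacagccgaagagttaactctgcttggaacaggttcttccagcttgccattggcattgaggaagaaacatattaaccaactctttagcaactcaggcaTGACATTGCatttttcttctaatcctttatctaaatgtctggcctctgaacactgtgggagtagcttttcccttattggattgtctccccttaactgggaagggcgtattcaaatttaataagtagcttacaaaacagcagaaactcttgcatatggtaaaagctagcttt
Gstm5: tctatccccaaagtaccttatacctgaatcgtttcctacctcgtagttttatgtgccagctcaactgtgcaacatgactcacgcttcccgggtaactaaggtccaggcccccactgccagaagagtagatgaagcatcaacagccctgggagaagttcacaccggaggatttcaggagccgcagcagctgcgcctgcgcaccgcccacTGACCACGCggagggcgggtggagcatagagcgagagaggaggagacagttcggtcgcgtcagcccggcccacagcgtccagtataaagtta
Sod1: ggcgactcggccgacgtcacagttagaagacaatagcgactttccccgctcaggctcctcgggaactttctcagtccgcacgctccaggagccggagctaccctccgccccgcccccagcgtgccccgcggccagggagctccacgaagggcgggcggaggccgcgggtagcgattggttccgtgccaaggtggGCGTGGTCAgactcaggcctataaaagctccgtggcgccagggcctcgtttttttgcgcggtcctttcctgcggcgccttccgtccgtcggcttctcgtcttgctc
Gstt1: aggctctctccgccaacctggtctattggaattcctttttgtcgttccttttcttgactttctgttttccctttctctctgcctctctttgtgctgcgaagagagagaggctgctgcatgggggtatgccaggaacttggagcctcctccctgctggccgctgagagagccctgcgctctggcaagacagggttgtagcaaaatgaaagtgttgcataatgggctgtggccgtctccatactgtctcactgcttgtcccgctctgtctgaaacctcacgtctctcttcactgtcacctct
Nqo1: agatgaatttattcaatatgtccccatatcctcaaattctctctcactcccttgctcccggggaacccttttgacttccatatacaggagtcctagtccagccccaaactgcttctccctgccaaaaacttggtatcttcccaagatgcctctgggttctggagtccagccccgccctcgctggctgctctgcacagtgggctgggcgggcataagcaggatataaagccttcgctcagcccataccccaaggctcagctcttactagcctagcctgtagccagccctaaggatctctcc
The match begins 134 bases before the start in Gclm, 121 in Gsta3, 42 in Gstm5 and 56 in Sod1. A match describes these letters only, and none of these 4 genes passed the test for genotype described next.

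TG and WT were compared by limma on the deposited log2 values, with Benjamini-Hochberg adjustment over all 6814 probe sets and a threshold of 0.05. None of the 37 probe sets passed (0 of 37), where 83 of 6814 passed on the whole array (1.22%). At an unadjusted p under 0.05 there were 8 of 37, where the whole array had 12.7%. These 8 were 4 higher in TG, against 6.72% of all probe sets, and 4 lower, against 6.02%. The exact permutation test, which runs through every way to split the animals 5 against 5, put 8 members under 0.05, where the whole array had 11.8%. The groups did not overlap for 1 member, Gstz1, where 4.08% of all probe sets had no overlap. Of the 37 differences 23 lay below 0, where the share over all probe sets was 53.8%, and the median difference was -0.07, beside -0.02 over all probe sets. The sizes ran from -0.51 (Gstm5) to 0.79 (Txnip) on the log2 scale, and the 95% interval of a member extended by a median of 0.33 to each side.

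**Figure D1:**
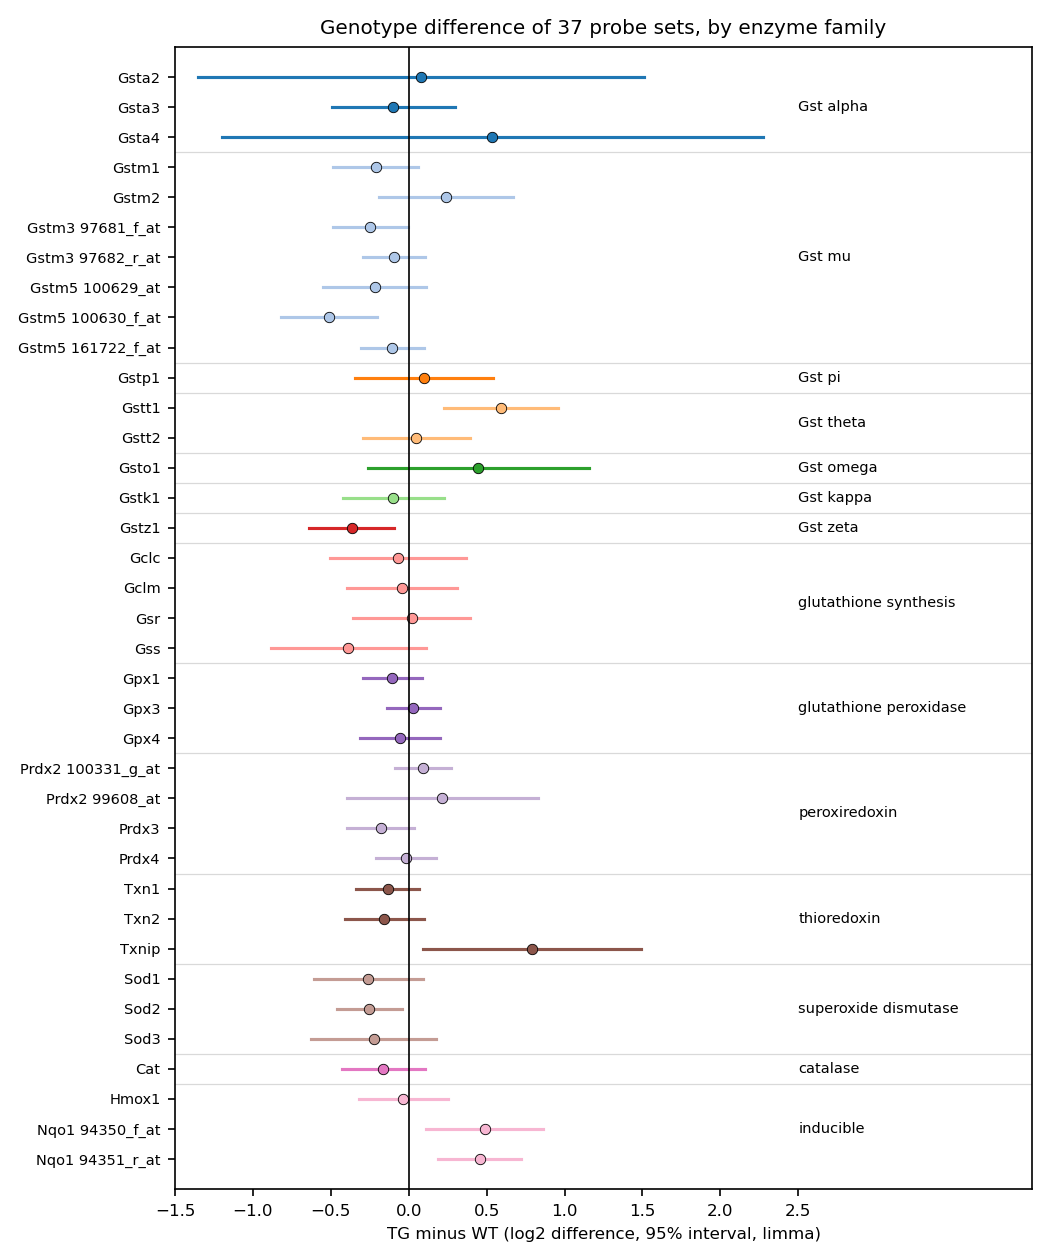
Log2 difference between TG and WT with its 95% interval from limma for each of the 37 probe sets (n = 5 per genotype), coloured and labelled by enzyme family. The intervals of Gstt1, Txnip and both Nqo1 probe sets lie above 0 and those of Gstm5 (100630_f_at), Gstm3 (97681_f_at), Gstz1 and Sod2 below it, and 0 of 37 passed after adjustment.

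Facts of the whole series bear on these values. Xist and the Y-linked Eif2s3y showed 2 females and 3 males in each genotype, the females being WT 612, WT 650, TG 614 and TG 652. Between 53.0% and 57.0% of the probe sets of each array lay over the log2 value of 4. Of the 10 tested proximal tubule markers 8 had a lower mean in TG and 0 passed, while Lrp2 differed by 0.01 and Slc7a9 by 0.09. With sex in the model 4 of the 10 passed, Slc34a1, Slc17a1, Slc22a6 and Slc22a12, all lower in TG, where 4.18% of all probe sets passed. The summed level of this list ran from 14.94 to 15.24 in TG against 15.27 to 15.63 in WT. Of the 9 tested macrophage and leukocyte markers 9 had a higher mean in TG and 2 passed the test, with a summed level of 10.31 to 11.58 in TG against 9.73 to 10.12 in WT, while Adgre1, Cd68, Tyrobp and Fcer1g stayed under the filter. The sums of both lists did not overlap between genotypes. Nor did those of the 3 tested liver markers, 9.21 to 11.14 in TG against 6.31 to 8.27 in WT. Of these Ttr passed with a difference of 3.89 (limma adjusted p = 0.0370). Alb differed by 0.90 and Fgb by 0.06, and neither passed. The mean log2 value in TG was 10.27 for Ttr, 5.93 for Alb and 4.57 for Fgb, so the summed level in TG was mostly Ttr. The liver markers Apoa1, Apoa2, Cyp2c29, Ambp and Ahsg stayed under the filter. Of the 8 thick ascending limb and distal tubule markers 0 passed and 5 had an unadjusted p under 0.05. Slc12a1 (0.56), Slc12a3 (0.92) and Kcnj1 (0.78) were higher in TG among these 5, while Pvalb (-0.91) and Calb1 (-0.58) were lower. Slc12a3 and Kcnj1 passed once sex was in the model, both higher in TG (limma adjusted p = 0.0033 and 0.012). The summed level of all 8 overlapped between genotypes (TG 14.83 to 15.49, WT 14.08 to 15.28). The actin 3' minus 5' signal, a measure of RNA quality, was highest in WT 612 (3.35) and WT 618 (2.90), where TG ran from 1.82 to 2.58. The part of the marker lists in the differences below was not tested, and in whole kidney fewer cells of a type and less RNA per cell cannot be told apart.

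Among the glutathione S-transferases, 16 probe sets for 13 genes were tested, with 7 differences above 0, 9 below and a median of -0.10. The theta-class enzyme Gstt1, which acts on small halogenated compounds, was at 10.28, 10.37, 10.50, 10.43 and 10.41 in TG 614, 619, 652, 657 and 661. In WT 612, 618, 650, 658 and 663 it was at 10.01, 9.28, 10.32, 9.71 and 9.70. The TG animals lay close together at or above the top of the WT range, and WT 650 was the 1 WT animal above any TG value, that of TG 614. The mean was 10.40 ± 0.08 in TG and 9.80 ± 0.39 in WT (log2, SD, n = 5), a 1.51-fold higher level that did not pass (0.59 ± 0.17, SE, limma adjusted p = 0.143, exact permutation p = 0.0159). With sex in the model Gstt1 was the 1 member that passed, and it rose by 0.59 ± 0.14 (limma adjusted p = 0.0473), where 4.18% of all probe sets passed. That call held in 2 of the 10 fits with sex that left out 1 animal each, those without TG 614 and without WT 650, with adjusted p from 0.0285 to 0.117. With the actin 3' minus 5' signal beside sex in the model, the limma adjusted p was 0.0726, and without sex but without WT 650 it was 0.0467. The other theta member, Gstt2, differed by 0.05, with a 95% interval from -0.29 to 0.39.

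The mu class, which shares closely related sequences among its genes, had 7 probe sets for 4 genes. Of the 7 differences 6 lay below 0, with 3 from Gstm5 and 2 from Gstm3. For Gstm5 the probe set 100630_f_at was at 10.06, 10.32, 10.02, 10.34 and 10.16 in TG 614, 619, 652, 657 and 661. It was at 10.94, 10.92, 10.83, 10.34 and 10.43 in WT 612, 618, 650, 658 and 663. All WT animals other than 658 stood above every TG animal, while WT 658 and TG 657 lay level, so the groups touched. The difference of -0.51 ± 0.14 (log2, SE) did not pass (limma adjusted p = 0.135, exact permutation p = 0.0159). It passed with sex and the animal number range (612 to 619 against 650 to 663) in the model (limma adjusted p = 0.0420). With sex and actin 3' minus 5' it did not (adjusted p = 0.0738). Both models were added after the data were seen, and 549 of all 6814 probe sets passed in the former. Other Gstm5 probe sets differed by -0.22 (100629_at) and -0.11 (161722_f_at). The mean of the 3 differed by -0.28 ± 0.09 (SE) and did not pass (limma adjusted p = 0.1855). Because the array names of 100630_f_at and 161722_f_at hold an f, a mark for probes shared within a gene family, their signals may include related mu genes. The Gstm3 probe set of the same kind differed by -0.25 ± 0.11 and that of Gstm1 by -0.21 ± 0.12 (SE), and in both WT 612 and WT 618 were the highest animals. These are also the animals with the highest actin 3' minus 5' signal. With that signal as a covariate the difference was -0.14 for this Gstm3 probe set, -0.08 for Gstm1 and -0.35 for Gstm5 (100630_f_at). Gstm2 was the 1 mu member with a difference above 0, 0.24 ± 0.20, and the second Gstm3 probe set differed by -0.09.

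The zeta-class enzyme Gstz1, which isomerises maleylacetoacetate in tyrosine breakdown, was at 10.80, 11.40, 11.22, 11.40 and 11.29 in TG 614, 619, 652, 657 and 661. In WT 612, 618, 650, 658 and 663 it was at 11.59, 11.78, 11.53, 11.57 and 11.48. The groups did not overlap: the highest TG animals, 619 and 657, stood just under WT 663, the lowest WT animal, and TG 614 was the lowest of all. The difference was -0.37 ± 0.12 (limma adjusted p = 0.234), and its exact permutation p of 0.00794 is the smallest that 5 against 5 animals allow.

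The omega-class enzyme Gsto1, which reduces dehydroascorbate, was at 9.90, 9.24, 10.09, 9.53 and 9.49 in TG 614, 619, 652, 657 and 661 and at 9.77, 8.34, 10.16, 8.88 and 8.86 in WT 612, 618, 650, 658 and 663. The high values of both genotypes came from the females, and the male TG animals lay above the male WT animals. Gsto1 differed by 0.44 ± 0.32 (limma adjusted p = 0.616), and by 0.23 to 0.68 when 1 animal was left out. The pi-class enzyme Gstp1 was at 10.99, 11.48, 10.999, 11.65 and 11.56 in TG, in the same order of animals, and at 10.77, 11.72, 10.96, 11.37 and 11.37 in WT. It had its low values in the females and differed between genotypes by 0.10 ± 0.20. The kappa-class enzyme Gstk1 of mitochondria and peroxisomes was at 9.92, 9.69, 10.42, 9.80 and 9.87 in TG and at 10.21, 9.97, 10.29, 9.93 and 9.80 in WT, in the same order. Its groups overlapped, with a difference of -0.10 ± 0.15.

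The alpha-class enzymes conjugate aldehydes and hydroperoxides from oxidised lipids. Gsta4 was at 9.07, 7.09, 9.83, 7.03 and 7.04 in TG 614, 619, 652, 657 and 661 and at 9.08, 6.28, 9.18, 6.76 and 6.08 in WT 612, 618, 650, 658 and 663. Gsta2 was at 11.39, 9.87, 11.98, 10.12 and 9.76 in TG and at 12.12, 9.55, 11.91, 9.52 and 9.65 in WT, in the same order. In both genes the females of either genotype stood far above every male, which widened the genotype intervals to -1.20 to 2.27 for Gsta4 and -1.35 to 1.51 for Gsta2. The genotype difference was 0.54 for Gsta4, 0.08 for Gsta2 and -0.10 for Gsta3, and that of Gsta4 was 0.08 without TG 652 and 0.96 without WT 650. With sex in the model the error (SE) of Gsta4 was 0.17 in place of 0.79, and its difference of 0.54 had a limma adjusted p of 0.117.

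**Figure D2:**
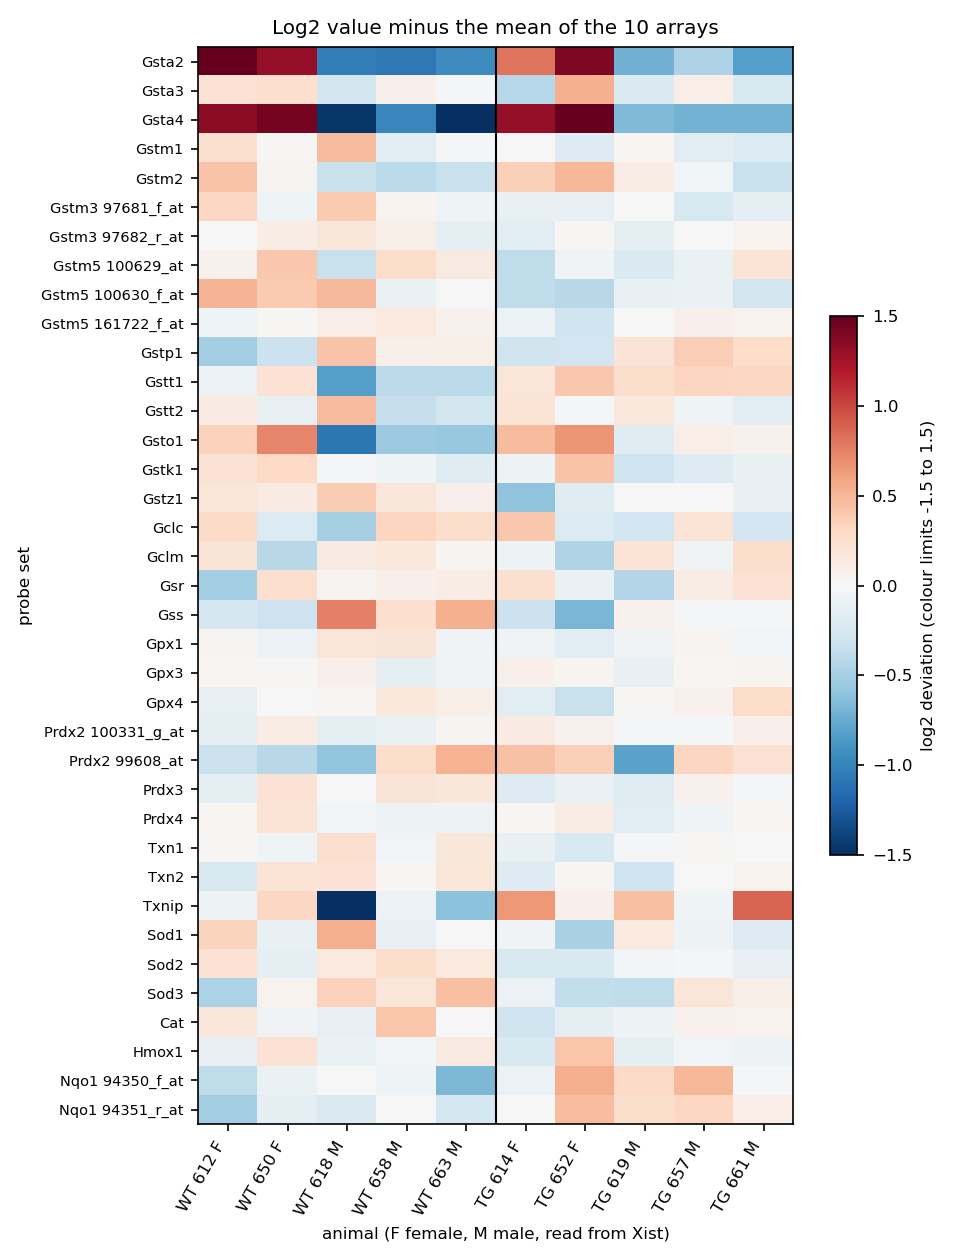
Log2 value of each of the 37 probe sets (rows) minus its mean over the 10 arrays, by animal (columns), with WT left and TG right of the line and females first in each. Gsta2 and Gsta4 are high in all 4 females, and Txnip is lowest in WT 618.

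In glutathione synthesis and recycling, 4 genes were tested, with 3 differences below 0 and a median of -0.06. Glutathione synthetase (Gss), which joins glycine in the last step, was at 9.12, 9.51, 8.76, 9.43 and 9.43 in TG 614, 619, 652, 657 and 661. In WT 612, 618, 650, 658 and 663 it was at 9.20, 10.20, 9.13, 9.70 and 9.97. The 3 WT males held the 3 highest values, and the groups otherwise overlapped. Gss differed by -0.39 ± 0.23 (limma adjusted p = 0.52), and by the same amount with an error of 0.12 with sex in the model (adjusted p = 0.102). With sex and the animal number range together Gss passed (limma adjusted p = 0.0381), and with sex and actin 3' minus 5' it did not (adjusted p = 0.145). Both models were added after the data were seen, and 549 of all 6814 probe sets passed in the former. The rate-limiting ligase showed differences of -0.07 for its catalytic subunit Gclc and -0.05 for its modifier subunit Gclm, with 95% intervals of -0.50 to 0.37 and -0.40 to 0.31. Glutathione reductase (Gsr) differed by 0.02, with an interval of -0.36 to 0.40.

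The glutathione peroxidases varied little. Gpx1, the cytosolic enzyme, was at 5.97, 5.98, 5.86, 6.07 and 5.99 in TG 614, 619, 652, 657 and 661 and at 6.06, 6.21, 5.94, 6.22 and 5.97 in WT 612, 618, 650, 658 and 663. Its groups overlapped, with a difference of -0.11 ± 0.09 (limma adjusted p = 0.661). Gpx3, the secreted peroxidase of plasma that the proximal tubule makes, ran from 14.56 to 14.75 in TG and from 14.53 to 14.74 in WT. Its difference of 0.03 had a 95% interval from -0.14 to 0.20, the narrowest of the 37. Gpx4, which reduces peroxides within membranes, differed by -0.06, with an interval of -0.32 to 0.20.

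Peroxiredoxins and thioredoxins gave 7 probe sets. Prdx3, the mitochondrial peroxiredoxin, was at 10.09, 10.10, 10.19, 10.35 and 10.25 in TG 614, 619, 652, 657 and 661 and at 10.15, 10.29, 10.51, 10.48 and 10.45 in WT 612, 618, 650, 658 and 663. WT 650, 658 and 663 stood above every TG animal, WT 612 and 618 lay within the TG range, and the difference was -0.18 ± 0.10 (limma adjusted p = 0.474). Prdx2, the cytosolic form abundant in red cells, differed by 0.09 (100331_g_at) and 0.22 (99608_at), and the latter ranged from 5.91 in TG 619 to 7.23 in WT 663. Of the 3 tested red cell markers Slc4a1, which also marks intercalated cells, was past the threshold with a difference of 0.83. Hba-a1 differed by 0.20 and Alas2 by -0.01, and neither passed. The summed level of the 3 was 11.93 to 12.66 in TG and 11.65 to 12.20 in WT. The part of these markers in the Prdx2 values was not tested. Prdx4 of the endoplasmic reticulum differed by -0.02. Thioredoxin itself (Txn1) differed by -0.14 ± 0.09 and its mitochondrial form Txn2 by -0.16 ± 0.12.

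Txnip, the protein that binds and inhibits thioredoxin and responds to glucose, had the largest difference of the 37 with all animals in the fit. It was at 11.25, 11.04, 10.67, 10.52 and 11.46 in TG 614, 619, 652, 657 and 661 and at 10.51, 9.09, 10.90, 10.51 and 9.98 in WT 612, 618, 650, 658 and 663. The lowest values were those of WT 618 and WT 663, and WT 650 lay above 2 TG animals. The mean was 10.99 ± 0.39 in TG and 10.20 ± 0.70 in WT (log2, SD, n = 5), and the difference of 0.79 ± 0.32 did not pass (limma adjusted p = 0.337, exact permutation p = 0.0397). It was 1.34 in the animals numbered 612 to 619 and 0.42 in those numbered 650 to 663, a gap with limma unadjusted p = 0.178. Without WT 618 the Txnip difference was 0.51. On fluidics station 1 the difference was 1.39, and on station 2 it was -0.11.

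All 3 superoxide dismutases had a difference below 0. Sod2, the manganese enzyme of mitochondria, was at 9.93, 10.11, 9.93, 10.14 and 10.03 in TG 614, 619, 652, 657 and 661 and at 10.37, 10.30, 10.02, 10.42 and 10.30 in WT 612, 618, 650, 658 and 663. Of the WT animals only WT 650 lay within the TG range, and the difference was -0.25 ± 0.09 (limma adjusted p = 0.298, exact permutation p = 0.0317). Sod1, the copper-zinc enzyme of the cytosol, differed by -0.26 ± 0.16, and Sod3, the secreted form, by -0.23 ± 0.18. The highest Sod1 values were those of WT 618 at 13.0 and WT 612 at 12.78, the animals with the highest actin 3' minus 5' signal. With that signal as a covariate Sod1 differed by -0.08 and Sod3 by -0.37, and with sex added Sod1 differed by -0.06. Catalase (Cat) of peroxisomes was at 11.45, 11.67, 11.61, 11.81 and 11.80 in TG and at 11.91, 11.63, 11.70, 12.17 and 11.75 in WT, in the same order of animals. WT 658 was the highest animal, and the difference was -0.16 ± 0.12 (limma adjusted p = 0.618).

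The inducible genes Nqo1 and Hmox1 are textbook responders to oxidants and electrophiles. Nqo1, a quinone reductase, was at 6.97, 7.24, 7.45, 7.30 and 7.08 in TG 614, 619, 652, 657 and 661 by the probe set 94351_r_at. In WT 612, 618, 650, 658 and 663 it was at 6.46, 6.77, 6.85, 6.97 and 6.72. The groups touched where TG 614 and WT 658 both stood at 6.97. The mean was 7.21 ± 0.19 in TG and 6.75 ± 0.19 in WT, 1.37-fold higher, and the difference of 0.45 ± 0.12 did not pass (limma adjusted p = 0.121, exact permutation p = 0.0159). It passed with sex and the number range in the model (limma adjusted p = 0.0310) and not with sex and actin 3' minus 5' (adjusted p = 0.101). Both models were added after the data were seen, and 549 of all 6814 probe sets passed in the former. The second probe set, 94350_f_at, differed by 0.49 ± 0.17, so both probe sets of the gene had a higher mean in TG. Its name ends in f, the mark for probes shared within a gene family, and probe sets of the same gene are not independent. Within chip lot 1 and chip lot 2 the first differed by 0.41 and 0.53, within fluidics station 1 and 2 by 0.45 and 0.46, and in the low and high number range by 0.49 and 0.43. The second varied more, with 0.26 and 0.89 in the lots, 0.41 and 0.60 on the stations and 0.29 and 0.62 in the number ranges. Hmox1, heme oxygenase, differed by -0.04, with a 95% interval of -0.32 to 0.25, and its highest values were those of TG 652 at 6.32 and WT 650 at 6.12.

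**Figure D3:**
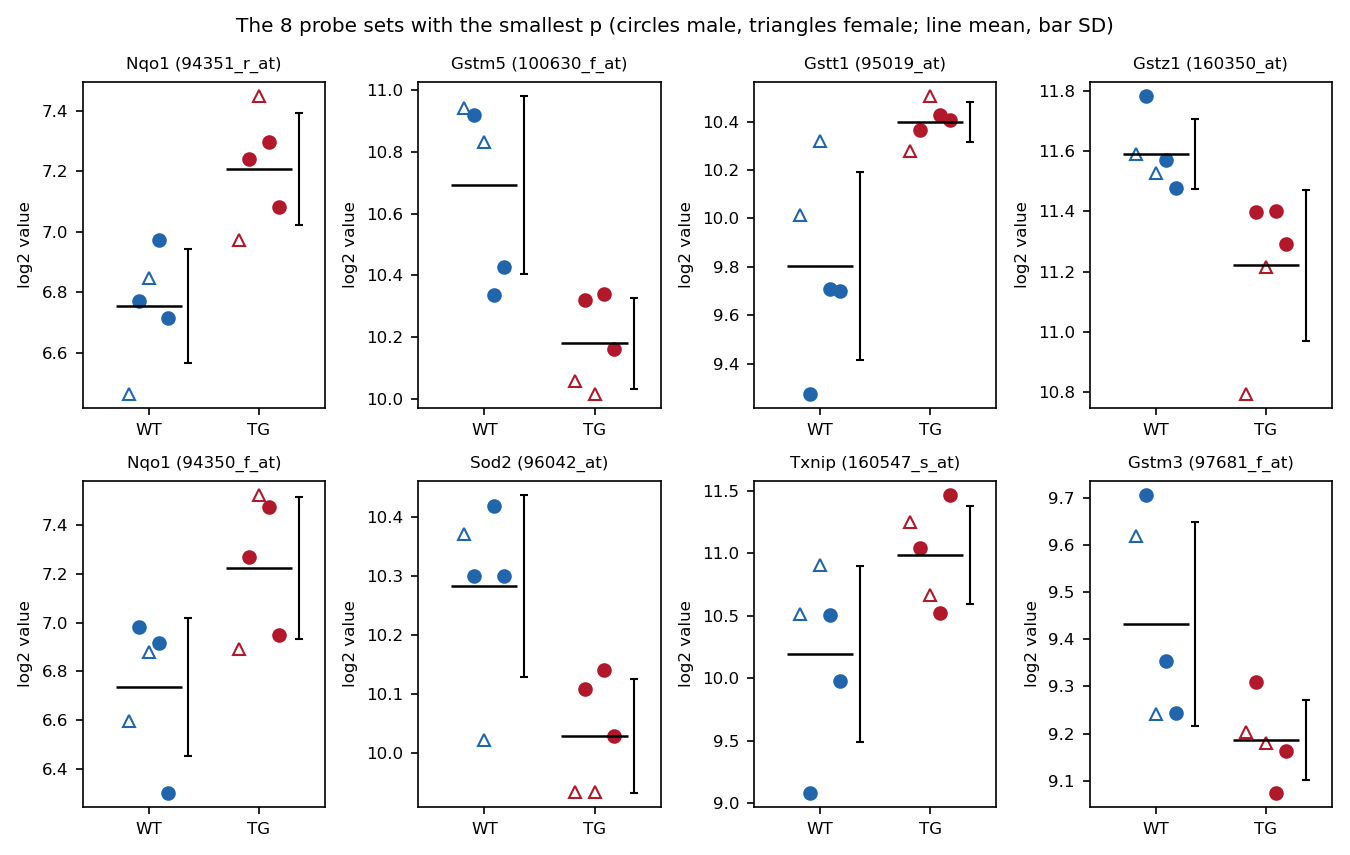
Log2 value of each animal for the 8 probe sets with the smallest p between genotypes, with circles for males, triangles for females, a line at each group mean and a bar of 1 SD (n = 5). Each panel has its own axis, and the groups are apart only for Gstz1.

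Sex separated some members far more than genotype did. Sex was read from the arrays and not from labels, so these values are a description with no test. In 4 members the 4 females all lay above the 6 males, where 3.27% of all probe sets did so, and in 3 the females all lay below, where 5.08% did so. Gsta4 was higher in females by 2.58 on the log2 scale (5.96-fold) as the mean of both genotypes, Gsta2 by 2.11 (4.31-fold), Gsto1 by 0.92 (1.90-fold) and Prdx4 by 0.16. Gss was lower in females by a log2 difference of -0.65, Gstp1 by -0.60 and Gpx4 by -0.26. For Gsta4 the females ran from 9.07 to 9.83 and the males from 6.08 to 7.09, and for Gsta2 from 11.39 to 12.12 and from 9.52 to 10.12. Gstm2 stood higher in females by 0.55, with an overlap between the sexes.

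**Figure D4:**
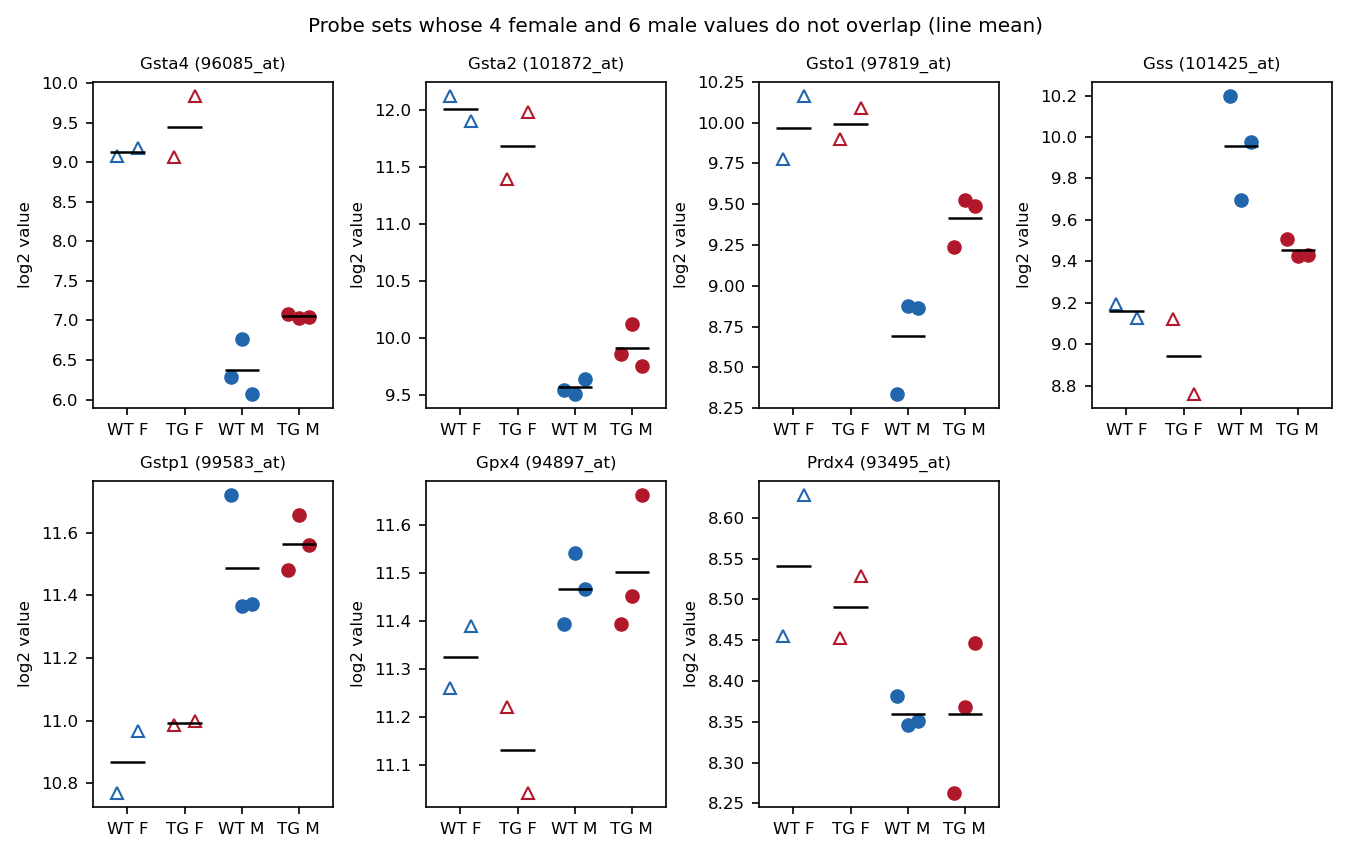
Log2 value of each animal for the 7 probe sets whose 4 female and 6 male values do not overlap, split by genotype and sex (F female, M male), with a line at each mean. In Gsta4, Gsta2, Gsto1 and Gss the 3 TG males lie between the WT males and the females.

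Within the males, the TG animals stood on the female side of the WT animals, with no overlap, in 4 of these 7 members, and on the far side in 0. Of the 569 probe sets of the whole array whose sexes do not overlap, 26.5% had the TG males on the female side and 2.81% on the far side, a count made after the values were seen. Gsto1 averaged 9.42 in TG males and 8.69 in WT males, Gsta4 7.05 and 6.37, Gsta2 9.92 and 9.57, and Gss 9.46 and 9.96. In the model with separate genotype effects per sex, the male differences of these 4 were 0.72, 0.68, 0.35 and -0.50, with limma adjusted p of 0.0929, 0.198, 0.421 and 0.157. Gstt1 had another order: WT males ran from 9.28 to 9.71, WT females were at 10.01 and 10.32, and TG males, from 10.37 to 10.43, stood above both WT females and above TG 614. Its male difference was 0.84 ± 0.15 (limma adjusted p = 0.0302) and its female difference 0.23 (adjusted p = 0.72). The male value rests on 3 against 3 animals, and the share of all probe sets past the threshold in males is not given here. The split by sex was made beside the planned interaction term, for which Gstt1 did not pass (limma adjusted p = 0.996).

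The difference between the sexes in the genotype effect was tested by an interaction term. For that term 0 of 37 members passed, where 1 of 6814 probe sets did (0.0147%), and 4 of 37 had an unadjusted p under 0.05, where 4.15% of all did. The 4 were Gstt1, Gsta2, Gsto1 and Gstm5 (100630_f_at), with female minus male gaps of -0.61, -0.67, -0.70 and -0.56 and limma adjusted p of 0.996 for each. The errors (SE) of these 4 gaps were 0.23, 0.26, 0.28 and 0.24, with 2 females and 3 males in each genotype.

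**Figure D5:**
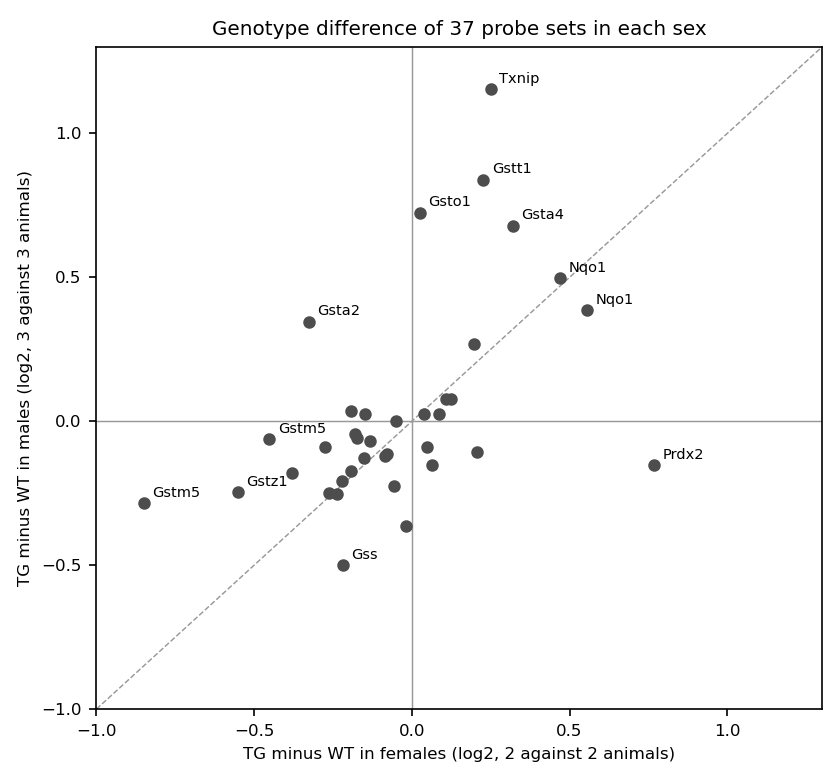
Log2 difference between TG and WT in females (x axis) and in males (y axis) for the 37 probe sets, from 1 model with separate genotype effects per sex. The dashed line marks equal differences, and Gstt1, Gsto1, Gsta4 and Txnip lie above it.

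Other genes of the same pathways were counted from 5 lists chosen by function, in which 38 genes were tested and 0 passed. In glutathione turnover 0 of 9 passed, with a median of -0.14: the microsomal transferase Mgst1 differed by 0.77 ± 0.25 (limma adjusted p = 0.219) and Hagh, which completes methylglyoxal removal, by -0.31 ± 0.13. Among thioredoxin partners 0 of 8 passed, with a median of -0.01. The methionine sulfoxide reductase Msrb1 differed by -0.67 ± 0.32 (limma adjusted p = 0.414). With sex in the model the same difference passed (limma adjusted p = 0.0450), where 4.18% of all probe sets passed. The sulfiredoxin Srxn1 differed by 0.26 ± 0.13. In the list of Nrf2 regulation and its known targets 0 of 12 passed, with a median of 0.02. Its smallest p values were those of Bach1, a repressor at antioxidant response elements (-0.40 ± 0.10, limma adjusted p = 0.106), and of Nfe2l2 itself, which averaged 9.07 ± 0.26 in TG and 8.38 ± 0.47 in WT (0.69 ± 0.22, adjusted p = 0.202). NADPH supply had 0 of 6 past the test and a median of 0.00, with Nnt at 0.35 ± 0.18 and Taldo1 at -0.18 ± 0.14. Of the oxidant-producing enzymes 3 were tested and 0 passed, with Xdh at 0.43 ± 0.24, Maoa at 0.27 ± 0.22 and Cyba at -0.23 ± 0.19. The phagocyte oxidase genes Cybb, Ncf1 and Ncf4 stayed under the filter.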

How the data were processed

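Kidney RNA of 5 TG and 5 WT mice was read on 1 array each. The submitters' processing notes name GCRMA, without a version, for the deposited log2 values. Their log2 scale was read from their range. Chip lot, fluidics station and processing day come from each array's run record. Of 12488 probe sets 66 controls were left out, 10833 name 1 gene, 396 several and 1193 none. Gene names came from the platform annotation, and 0 symbols were replaced by a newer one. Values were used as deposited. The number of arrays limits the precision, and the limma p-values set a difference against the spread between animals, each read on 1 array.

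TG was compared with WT across all probe sets by limma 3.58.1 in R 4.3.3 (lmFit and eBayes, no covariate, two-sided), on probe sets over a log2 value of 4 on at least 5 arrays. Sex was set to female at an Xist value over 6. Errors of differences are SE, of group means SD. Exact permutation tests were two-sided over every split into 5 and 5. A list is represented by 1 probe set per gene, that with the highest mean, and its summed level is the log2 of the sum of linear values. The limma step was tested on simulated data. Figures used matplotlib 3.10.9.

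The members, lists and tests were chosen with earlier results of these data known. Every member is named. All animals' values are given for members past the threshold with or without sex in the model, for the smallest p in each family and for members without overlap. Gsta2 was added after its values were seen. Of each pathway list the 2 genes with the smallest p are named, with Cyba given beside them. Aldh1a1, which the rule does not reach, is given in the closing section. Alternatives covered filters, variance models, array weights, normalization, a value of 16 added on the linear scale, covariates, the permutation test, a threshold of 0.01 and leaving out each animal.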

Additional observations from a re-analysis of the deposited data

Results flagged for a closer look

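Within each genotype, the 5 values of every member were checked for 1 animal far from the others, by the gap to its neighbour over the whole range (limit 0.71 for 5 animals). Of 74 groups 4 exceeded it, 5.41%, where chance gives about 5%. Prdx2 (99608_at) stood at 5.91 in TG 619 against 6.94 to 7.16 in the other TG animals. Gclm stood at 11.06 in WT 650 against 11.53 to 11.68 in the other WT animals, and Gsr at 9.91 in WT 612 against 10.47 to 10.68. Gpx3 stood at 14.56 in TG 619 against 14.70 to 14.75. No member passed the test of a genotype difference between the sexes (limma, 0 of 37, and 4 at an unadjusted p under 0.05).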

How the results depend on the processing

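Over the alternatives the number of members past the threshold was 0 in most settings and 1 with array weights (Gstt1), 1 with sex in the model (Gstt1) and 4 with sex and the animal number range together (Gstt1, Gss, Gstm5 and the Nqo1 probe set 94351_r_at), the last added after seeing the data. Leaving out 1 animal gave 0 to 1. With sex in the model it gave 2 without TG 614 (Gstt1 and Gsta4) and 1 without WT 650 (Gstt1), also added after seeing the data. The other pathway genes went from 0 to 1 with sex. The median over the members stayed between -0.11 and -0.06. Over the whole array 83 probe sets passed, against 48 with no filter, 32 with processing day, 52 with fluidics station, 285 with sex, 549 with sex and number range, 374 with sex and actin 3' minus 5', and 31 to 92 without 1 animal. Of 958 member differences under alternatives 7 newly passed, 0 stopped passing and 34 changed sign, in 11 of the 37 probe sets. With processing day in the model Gclc was at 0.054, Gsr at -0.0078 and Hmox1 at 0.011. With array weights Gclm was at 0.018, Gsr at -0.038 and Prdx2 (99608_at) at -0.0040. With actin 3' minus 5' they were at 0.026, -0.141 and -0.078, and with sex added at 0.059, -0.144 and -0.094. Gsr was at -0.013 after median centring and at -0.051 with chip lot. Leaving out 1 animal moved Gsta2 from -0.26 to 0.47, Gstp1 from -0.020 to 0.217, Gstt2 from -0.031 to 0.175, Gpx3 from -0.0022 to 0.062, Gpx4 from -0.133 to 0.022, Gclc from -0.199 to 0.0057, Gclm from -0.156 to 0.062, Gsr from -0.111 to 0.129, Hmox1 from -0.143 to 0.019 and Prdx4 from -0.050 to 0.028. The difference moved by over 1.5 times in 26 of the 37 probe sets when some animal was left out and in 18 with actin 3' minus 5'. The cause of these changes was not tested. Processing day leaves WT 663 and TG 661 alone on their days, and chip lot TG 661 alone in its lot, so these fits in effect drop them. No paired analysis was possible because the genotypes share no replicate number.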

Other observations

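Aldh1a1, a retinal dehydrogenase counted among the Nrf2 targets, had the widest spread of the pathway lists. It averaged 9.66 ± 1.64 in TG and 6.35 ± 2.18 in WT (log2, SD, n = 5), and its difference of 3.32 ± 1.05 did not pass (limma adjusted p = 0.203, or 0.13 once sex was modelled). It was named after its values were seen.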
